A study of Mus musculus with 8 samples.

Results

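The factors that start and extend a protein chain on the ribosome were examined at the RNA level in the livers of 4 alcohol fed mice and 4 mice pair-fed a control diet. The group was taken as every gene whose symbol in the array annotation begins with *Eif1* to *Eif6*, *Eef1* or *Eef2*, apart from *Eif2ak2*, *Eif2s3x* and *Eif2s3y*. A gene entered only if a probe-set carried its symbol and no other, and the probe-set of highest mean would have been read where a gene had several. This gave 45 genes with 1 probe-set each, of 14860 genes with a probe-set of their own. The rule did not use the diets.

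All mice were male wild type C57Bl6J, 6 weeks old when feeding began. The alcohol liquid diet was raised in steps, with 2.06% alcohol for 3 days, 4.18% for 4 days and, as the array labels give it, 6.2% for 5 weeks, at which level alcohol supplied 35% of the calories. The methods of the study give a slightly higher final level. The control liquid diet gave the same calories from maltose and dextrin. Alcohol fed mice carry the labels WA-811, WA-817, WA-833 and WA-836, and mice fed the control diet the labels WC-820, WC-824, WC-834 and WC-840. RNA of whole liver was read on Affymetrix Mouse Exon 1.0 ST arrays, 1 array for each mouse, as log2 values made by RMA, which corrects background, normalizes the arrays to each other and combines the probes of a gene. Values of single mice are given in the order of these labels, and a difference is the mean of the alcohol fed mice minus the mean of the control mice on this log2 scale. In whole liver, fewer cells of a type and less RNA in each cell cannot be told apart.

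Translation begins when eIF4E, the protein that holds the cap of an mRNA, joins the scaffold eIF4G and the helicase eIF4A, and this complex brings in the small ribosomal subunit with eIF3 and the initiator tRNA carried by eIF2. Control is exerted at the cap, where eIF4E-binding proteins hold eIF4E away from eIF4G until mTORC1 phosphorylates them, and at eIF2, whose stress kinases block its recharging with GTP by eIF2B. In elongation eEF1A delivers aminoacyl-tRNA, the eEF1B subunits recharge eEF1A, and eEF2 moves the ribosome along the mRNA until its kinase eEF2K inactivates it. The liver makes most plasma proteins and depends on this machinery.

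Of the 45 factors, 40 were bright enough to be tested. A probe-set was tested when its fourth-highest value of the 8 arrays was at least 5.56, a limit that does not read the diets. Of these 40 factors, 39 had a mean above that limit on both diets and 1, *Eif4e*, only on the control diet. The medians of the arrays lay between 5.10 and 5.14 in alcohol fed mice and between 5.04 and 5.08 in control mice, so that every alcohol array had the higher median, and the median difference over all probe-sets tested was 0.05.

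In limma, with p-values adjusted over all probe-sets tested, 3 of the 40 factors were lower in alcohol fed mice at an adjusted p under 0.05 and 0 were higher. The 3 were *Eif4e*, *Eif4a3* and *Eif2b4*. These were 7.5% and 0% of the factors, where 5.98% of all probe-sets tested were lower and 10.2% were higher. Of the 3, *Eif4e* was bright enough on the control diet only. When probe-sets were ranked by the mean of all 8 arrays, 39 factors were tested and 2, *Eif4a3* and *Eif2b4*, were lower. Higher values made up 62.9% of all calls, and 45.1% once each array was centred on its median. At an unadjusted p under 0.05, 5 factors were higher and 5 were lower, 12.5% each, where 20.5% of all probe-sets were higher and 11.4% lower. The median difference of the factors was 0.03, with 25 positive and 15 negative, and single differences lay between -1.06 and 0.39. At the study's own thresholds, a P of 1e-04 and 1.5-fold, 1 factor, *Eif4e*, was lower and 0 were higher. Of all probe-sets, 0.757% were lower and 1.01% higher at these thresholds.

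**Figure D1:**
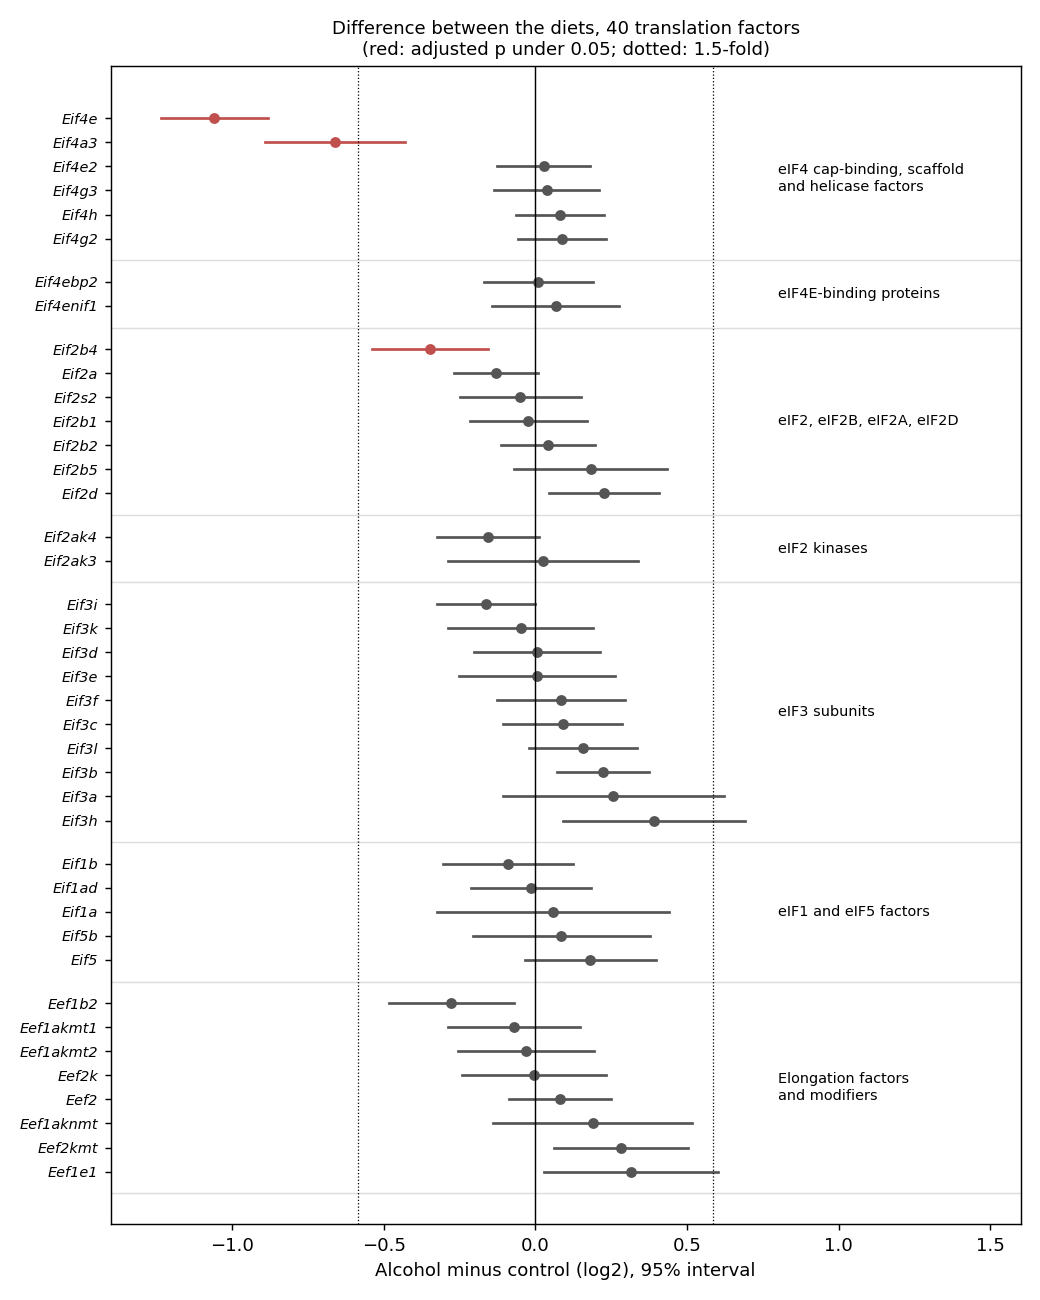
Difference of each of the 40 translation factors tested (log2, alcohol minus control, horizontal axis) with its 95% interval, by role. *Eif4e*, *Eif4a3* and *Eif2b4* lie at -1.06, -0.66 and -0.35 and passed an adjusted p under 0.05, while the other differences lie between -0.28 and 0.39.

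*Eif4e* had the lowest difference of the 40. Its log2 values were 4.78, 4.79, 4.76 and 4.83 in alcohol fed mice, against 5.87, 5.99, 5.68 and 5.86 in control mice. Every alcohol fed mouse lay below every control mouse, and the gap between the groups was far wider than the range within either. The means were 4.79 ± 0.03 in alcohol fed mice and 5.85 ± 0.13 in control mice (SD, n = 4 each). *Eif4e* fell, with a measured difference of -1.06 ± 0.08 (SE) and a 95% interval of -1.24 to -0.88 (limma, adjusted p = 1.96e-04). The alcohol values lay below the median of their arrays and below the limit set for testing, where the array reads only weak signal, so the interval covers the spread between mice and the true size of the fall is uncertain. *Eif4e* entered through its control values alone. It also passed when every probe-set was tested (limma, adjusted p = 0.00223), and a filter on the mean of all 8 arrays left it out.

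*Eif4a3* encodes a DEAD-box helicase related to eIF4A that sits in the exon junction complex, which marks spliced mRNA, rather than in the cap complex. Its values were 6.31, 6.61, 6.63 and 6.73 in alcohol fed mice, against 7.35, 7.17, 7.29 and 7.11 in control mice. The groups did not overlap, and mouse WA-811 was the lowest of the alcohol fed mice. The means were 6.57 ± 0.18 in alcohol fed mice and 7.23 ± 0.11 in control mice (SD, n = 4 each). *Eif4a3* fell by 0.66 ± 0.10 (SE), with a 95% interval of -0.89 to -0.43, to 63.3% of the control level (limma, adjusted p = 0.00486).

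*Eif2b4* encodes the delta subunit of eIF2B, the exchange factor of eIF2. Its values were 6.94, 7.23, 6.97 and 7.17 in alcohol fed mice, against 7.48, 7.35, 7.45 and 7.42 in control mice. The groups did not overlap, but the highest alcohol fed mouse, WA-817, came close to the lowest control mouse, WC-824. *Eif2b4* fell by 0.35 ± 0.08 (SE), with a 95% interval of -0.54 to -0.16, to 78.6% of the control level (limma, adjusted p = 0.0242). This call was lost without mouse WA-811 (adjusted p = 0.0563), WC-820 (0.0588), WC-834 (0.0620) or WC-840 (0.0604), and without the filter on low values (0.0807).

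**Figure D2:**
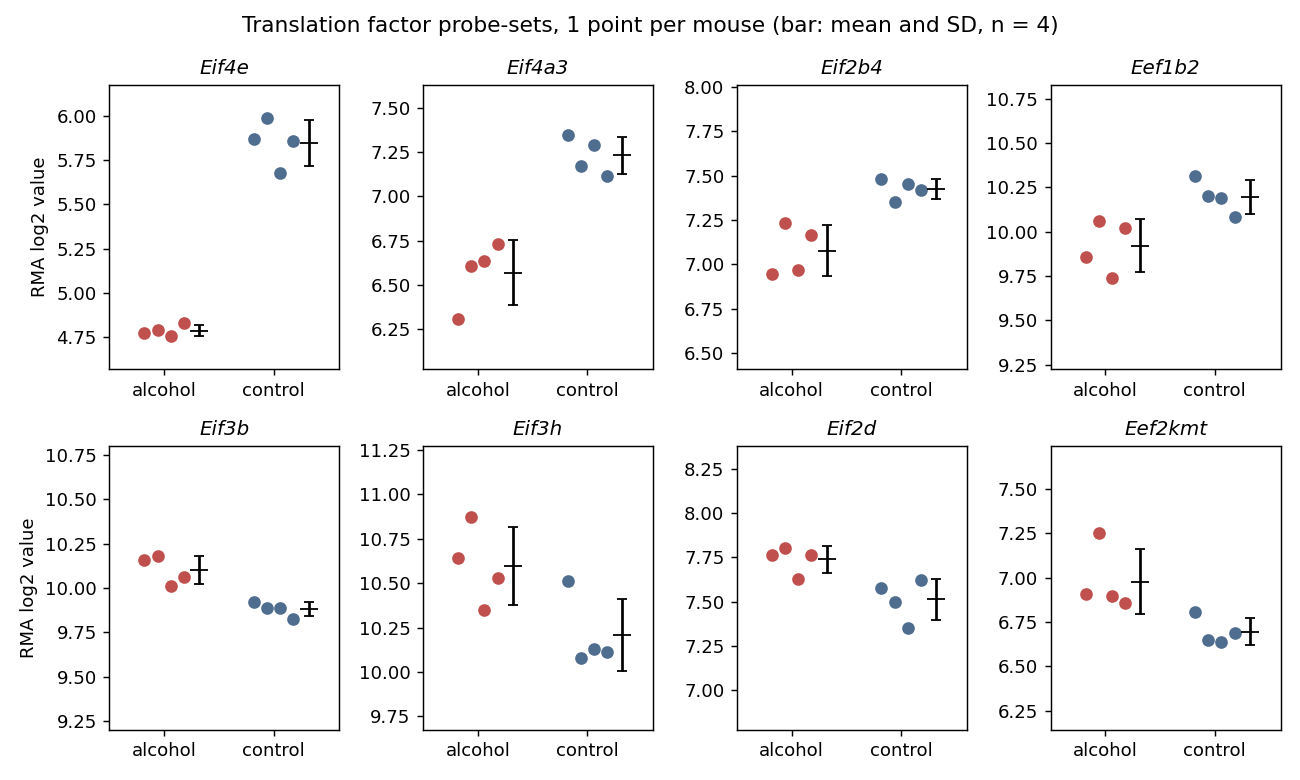
Log2 value of each mouse (vertical axis) for named translation factors, with alcohol fed mice left of control mice and a bar at each mean and SD. The groups of *Eif4e*, *Eif4a3* and *Eif2b4* are apart, with means of 4.79, 6.57 and 7.08 in alcohol fed mice and 5.85, 7.23 and 7.42 in control mice, while those of *Eif3h* overlap.

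The sequence upstream of these 3 genes is shown because they are the factors that fell. RefSeq windows that run from 250 bases before a transcription start to shortly after it (GRCm38.p6) were at hand for 37 of the 45 genes, in 47 windows, some of which overlap. They were searched on both strands for CACGTG (the E-box), CCAAT (the CCAAT box, ATTGG on the other strand) and CCGGAAGT (an ETS motif), none of which can hold another. The upstream part of each window is given 5′ to 3′ on the strand of the gene, with the E-box and CCAAT letters in capitals. *Eif4e* had a second start with none of these letters in its window, and *Eif4a3* had none in its own.
Eif4e, chr3:138527018-138527267, plus strand: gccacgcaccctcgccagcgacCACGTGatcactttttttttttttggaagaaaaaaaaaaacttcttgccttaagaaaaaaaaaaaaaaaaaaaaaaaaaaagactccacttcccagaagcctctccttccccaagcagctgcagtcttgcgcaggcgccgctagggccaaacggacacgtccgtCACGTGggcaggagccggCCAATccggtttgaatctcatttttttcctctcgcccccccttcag
Eif4a3, chr11:119300044-119300293, minus strand: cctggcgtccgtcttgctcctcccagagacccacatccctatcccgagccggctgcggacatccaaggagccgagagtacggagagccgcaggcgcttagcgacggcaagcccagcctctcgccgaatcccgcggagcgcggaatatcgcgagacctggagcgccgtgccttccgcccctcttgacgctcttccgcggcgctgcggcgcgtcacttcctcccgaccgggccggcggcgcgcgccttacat
Eif2b4, chr5:31193140-31193389, minus strand: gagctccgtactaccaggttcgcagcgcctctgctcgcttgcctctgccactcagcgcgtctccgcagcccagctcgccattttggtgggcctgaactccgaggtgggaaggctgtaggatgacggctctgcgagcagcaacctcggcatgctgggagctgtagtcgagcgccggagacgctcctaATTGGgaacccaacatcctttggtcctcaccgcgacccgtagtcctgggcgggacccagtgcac

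In the window of *Eif4e* the E-box starts at positions -228 and -64 and the CCAAT box at -46, counted from the first transcribed base. The window of *Eif2b4* holds a reversed CCAAT box at -64 and an ETS motif at 2, just after its start. Across the factors, the E-box was found in 10 of 47 windows (21.3%), against 7.15% of all 32851 windows and 10.3% of the windows of genes tested here. At least 2 E-boxes were found in 4.26% of the factors' windows, those of *Eif4e* and *Eif5a2*, against 0.594% of all windows and 1.07% of those of genes tested. Of the 10 genes with an E-box 9 were tested, and of these 1, *Eif4e*, was lower and 0 were higher by limma's adjusted p, while the other differences lay between -0.09 and 0.26. The CCAAT box was found in 27.7% of the factors' windows, 37.4% of all windows and 37.5% of those of genes tested. The ETS motif was found in 19.1% of the factors' windows, 3.89% of all windows and 8.39% of those of genes tested. These letters were therefore also present upstream of factors whose values did not pass the test.

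At the cap, the fall of *Eif4e* stood beside small differences in the relatives, scaffold genes and helicase cofactor of this group that were tested. Genes outside the group that act at the cap are given below with the lists, and of these *Mknk1* and *Pdcd4* passed the test. No probe-set was annotated with the scaffold gene *Eif4g1* or the helicase gene *Eif4a1*, so these were not read. The helicase gene *Eif4a2* shared its probe-set with *Snora81*, and that probe-set differed by -0.35 (limma, adjusted p = 0.0565). *Eif4e2*, whose protein binds the cap without starting translation, had values of 7.07, 7.25, 7.06 and 7.10 in alcohol fed mice, against 7.14, 7.08, 7.06 and 7.09 in control mice. The control values lay within the range of the alcohol fed mice, and the difference was 0.03 with a 95% interval of -0.13 to 0.18 (limma, adjusted p = 0.826). *Eif4g2*, whose protein is related to the scaffold eIF4G but does not bind eIF4E, and the scaffold gene *Eif4g3* differed by 0.09 and 0.04, and *Eif4h*, a cofactor of the helicase eIF4A, by 0.08 (limma, adjusted p = 0.383, 0.781 and 0.419). *Eif4b*, another cofactor of eIF4A, and *Eif4e3*, a further relative of eIF4E, were too dim to be tested.

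The eIF4E-binding proteins were read through *Eif4ebp2* alone, since *Eif4ebp1* and *Eif4ebp3* shared their probe-sets with other genes. *Eif4ebp2* had values of 8.977, 9.001, 8.894 and 9.172 in alcohol fed mice, against 9.053, 8.978, 8.907 and 9.068 in control mice. The highest and the lowest mouse were both alcohol fed, and the difference was 0.01 with a 95% interval of -0.17 to 0.19 (limma, adjusted p = 0.950). *Eif4enif1*, which encodes the carrier that takes eIF4E into the nucleus, differed by 0.07 (limma, adjusted p = 0.668). The probe-set shared by *Eif4ebp1* and *Ccnq* differed by 0.21 (limma, adjusted p = 0.270), and its signal cannot be given to either gene.

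Among the genes of eIF2, its exchange factor eIF2B and the separate factors eIF2A and eIF2D, 1 of 7, *Eif2b4*, was lower and 0 were higher, with a median difference of -0.02. The other eIF2B genes measured were those of the alpha, beta and epsilon subunits, *Eif2b1*, *Eif2b2* and *Eif2b5*, of which the last holds the catalytic site. They differed by -0.02, 0.04 and 0.18 (limma, adjusted p = 0.888, 0.724 and 0.294). *Eif2s2*, the beta subunit of eIF2, differed by -0.05 with a 95% interval of -0.25 to 0.15 (limma, adjusted p = 0.751). *Eif2s1*, the subunit that the stress kinases phosphorylate, was not read, because no probe-set was annotated with its symbol.

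*Eif2a* and *Eif2d* encode factors that can bring tRNA to the ribosome without eIF2, and their differences had opposite signs. *Eif2a* had values of 8.96, 8.93, 8.86 and 8.90 in alcohol fed mice, against 9.01, 9.03, 9.07 and 9.06 in control mice. *Eif2d* had values of 7.76, 7.80, 7.63 and 7.76 in alcohol fed mice, against 7.58, 7.50, 7.35 and 7.62 in control mice. Neither pair of groups overlapped, but the differences of -0.13 and 0.23 did not pass the test (limma, adjusted p = 0.181 and 0.0865). Groups that did not overlap occurred with higher values on alcohol in 3 (7.5%) and with lower values in 6 (15%) of the 40 factors, against 15.5% and 8.14% of all probe-sets tested.

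The stress kinases of eIF2 that could be read were *Eif2ak3*, or PERK, the kinase of the endoplasmic reticulum, and *Eif2ak4*, or GCN2, which senses uncharged tRNA. *Eif2ak3* had values of 7.06, 7.33, 7.64 and 7.43 in alcohol fed mice, against 7.63, 7.34, 7.23 and 7.15 in control mice. The groups overlapped throughout, and the difference was 0.03 with a 95% interval of -0.29 to 0.34 (limma, adjusted p = 0.920). *Eif2ak4* had values of 6.03, 6.07, 5.89 and 6.02 in alcohol fed mice, against 6.03, 6.21, 6.18 and 6.22 in control mice. Only control mouse WC-820 lay within the alcohol range, and the difference was -0.16 with a 95% interval of -0.32 to 0.01 (limma, adjusted p = 0.185). *Eif2ak1*, the kinase that senses heme, likewise had no probe-set annotated with its symbol.

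None of the 10 eIF3 genes passed the test in either direction (limma, adjusted p between 0.0529 and 0.981), while 3 had an unadjusted p under 0.05. Of all probe-sets tested, 20.5% were higher and 11.4% lower at an unadjusted p under 0.05, so this count is not particular to eIF3. Their differences lay between -0.16 and 0.39 with a median of 0.09, and 8 were positive and 2 negative. The largest belonged to *Eif3h*, with values of 10.64, 10.87, 10.35 and 10.53 in alcohol fed mice, against 10.51, 10.08, 10.13 and 10.11 in control mice. Control mouse WC-820 lay within the range of the alcohol fed mice, and the difference was 0.39 with a 95% interval of 0.09 to 0.69 (limma, adjusted p = 0.0764). *Eif3h* passed the test without control mouse WC-820 (adjusted p = 0.0347), without alcohol fed mouse WA-833 (0.0437) and with array weights (0.0372).

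*Eif3b*, a core subunit of eIF3, came nearest to the threshold among the factors that did not pass. Its values were 10.16, 10.18, 10.01 and 10.06 in alcohol fed mice, against 9.92, 9.89, 9.89 and 9.82 in control mice. All alcohol fed mice lay above all control mice, with a difference of 0.22 ± 0.07 (SE) and a 95% interval of 0.07 to 0.38 (limma, adjusted p = 0.0529). It passed with a variance trend (adjusted p = 0.0373), with array weights (0.0325) and without alcohol fed mouse WA-833 (0.0406). *Eif3i* was the lowest subunit gene by its difference, -0.16, and its groups did not overlap (limma, adjusted p = 0.155).

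The 5 genes grouped by symbol as eIF1 and eIF5 factors were *Eif1a*, *Eif1ad*, *Eif1b*, *Eif5* and *Eif5b*. They gave 0 calls in either direction, with a median difference of 0.06 (limma, adjusted p between 0.229 and 0.934). At an unadjusted p under 0.05 there were 0 of the 5, beside 20.5% higher and 11.4% lower of all probe-sets tested. *Eif5* encodes the protein that triggers GTP hydrolysis by eIF2. Its values were 10.35, 10.24, 10.65 and 10.28 in alcohol fed mice, against 10.18, 10.26, 10.22 and 10.13 in control mice. Mouse WA-833 stood above the rest, and the difference was 0.18 (limma, adjusted p = 0.229).

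Of the elongation genes 8 of 10 were tested and 0 passed in either direction, with a median difference of 0.04 (limma, adjusted p between 0.0702 and 0.987). At an unadjusted p under 0.05 there were 3 of the 8, beside 20.5% higher and 11.4% lower of all probe-sets tested. *Eef2*, the translocation factor, had values of 12.07, 12.26, 12.00 and 12.11 in alcohol fed mice, against 12.09, 12.00, 11.98 and 12.04 in control mice. The groups overlapped, and the difference was 0.08 with a 95% interval of -0.09 to 0.25 (limma, adjusted p = 0.498). *Eef2k*, its inhibitory kinase, had values of 5.93, 6.10, 6.14 and 5.83 in alcohol fed mice, against 5.95, 6.16, 5.79 and 6.10 in control mice. These groups also overlapped, with a 95% interval of the difference of -0.24 to 0.23 (limma, adjusted p = 0.987). *Eef1a1*, the main gene of eEF1A, shared its probe-set with other genes.

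The elongation gene nearest the threshold was *Eef1b2*, which encodes an exchange subunit of eEF1B. Its values were 9.86, 10.06, 9.74 and 10.02 in alcohol fed mice, against 10.31, 10.20, 10.19 and 10.08 in control mice. The groups did not overlap but nearly met, with a difference of -0.28 and a 95% interval of -0.48 to -0.07 (limma, adjusted p = 0.0702). It passed once each array was centred on its median (adjusted p = 0.0328).

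*Eef2kmt*, which encodes a methyltransferase of eEF2, had values of 6.91, 7.25, 6.89 and 6.86 in alcohol fed mice, against 6.81, 6.65, 6.64 and 6.69 in control mice. Its groups were apart by a narrow margin, with mouse WA-817 well above the rest, and the difference was 0.28 (limma, adjusted p = 0.0823). *Eef1e1*, which encodes a scaffold protein of the complex of aminoacyl-tRNA synthetases, had values of 8.31, 8.63, 7.97 and 8.20 in alcohol fed mice, against 8.02, 7.91, 7.89 and 8.03 in control mice. Alcohol fed mouse WA-833 lay within the control range, and the difference was 0.32 with a 95% interval of 0.03 to 0.60 (limma, adjusted p = 0.122). Without mouse WA-833 it passed the test (adjusted p = 0.0371). The genes of methyltransferases of eEF1A, *Eef1akmt1*, *Eef1akmt2* and *Eef1aknmt*, differed by -0.07, -0.03 and 0.19 and did not pass.

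For the 37 factors that did not pass, the 95% intervals show what size of change these 8 mice leave possible. In 34 of them the interval lay within 1.5-fold in either direction. It reached 1.5-fold in *Eif3a*, *Eif3h* and *Eef1e1*. Counting the 3 that fell, the interval lay within 1.5-fold for 35 of 40 factors, against 76.6% of all probe-sets tested. The 5 factors that were too dim to be tested were *Eif4b*, *Eif4e3*, *Eef1d*, *Eif5a2* and *Eef1a2*. *Eif4b* lay between 2.11 and 2.86 in alcohol fed mice and between 2.11 and 2.88 in control mice, and *Eef1d*, an eEF1B subunit gene, between 5.24 and 5.69 in alcohol fed mice and between 4.97 and 5.42 in control mice. Without the filter their adjusted p values in limma were 0.586 to 0.865.

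A further 8 probe-sets carried the symbol of a translation factor together with that of another gene and were not counted. None passed the test, and their differences lay between -0.35 and 0.35 (limma, adjusted p between 0.0565 and 0.939). The lowest was shared by *Eif4a2*, the gene of an eIF4A helicase, and the small nucleolar RNA gene *Snora81*. Its values were 8.34, 7.85, 8.31 and 8.14 in alcohol fed mice, against 8.51, 8.46, 8.50 and 8.58 in control mice. The groups did not overlap, with an adjusted p of 0.0565 in limma.

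**Figure D3:**
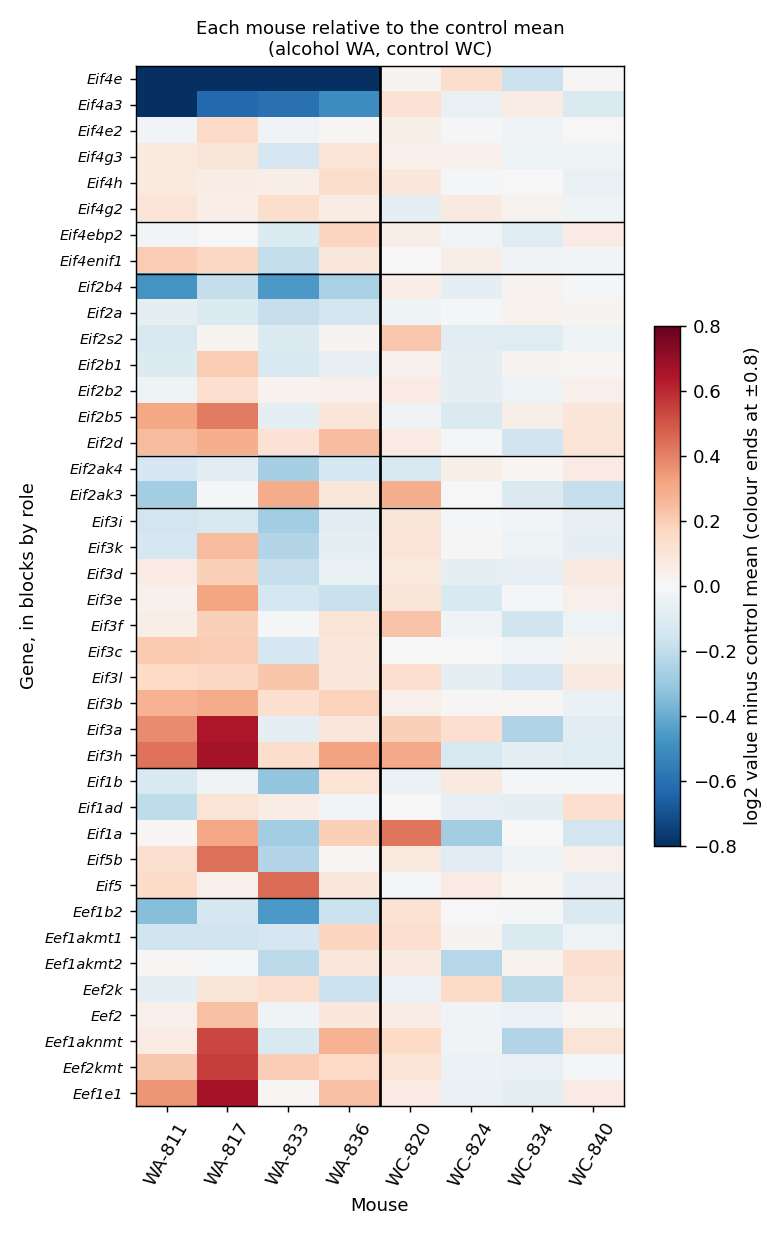
Log2 value of each of the 40 factors tested in each mouse minus the mean of the control mice (colour scale), with alcohol fed mice left of control mice and genes grouped by role. Mouse WA-817 holds the highest alcohol value in 22 factors and mouse WA-833 the lowest in 27.

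Within a diet the same mice often held the highest or the lowest value. Among alcohol fed mice, mouse WA-817 had the highest value in 22 of 40 factors (55%) and mouse WA-833 the lowest in 27 (67.5%), against 32.1% and 37.8% of all probe-sets tested. Among control mice, mouse WC-820 had the highest value in 24 factors (60%, against 35% of all probe-sets). Relative to the control mean, the mean of the 40 factors was -0.02, 0.12, -0.11 and 0.01 in alcohol fed mice, against 0.08, -0.02, -0.05 and 0.00 in control mice. The mouse means of the 2 diets overlapped. The 10 eIF3 genes spread more widely, with means of 0.13, 0.28, -0.06 and 0.05 in alcohol fed mice, against 0.13, -0.03, -0.08 and -0.02 in control mice. The median SD of a factor was 0.148 in alcohol fed mice and 0.0812 in control mice, and it was larger in alcohol fed mice for 72.5% of the factors and 63.5% of all probe-sets. *Eif3b*, *Eif3h* and *Eef1e1* all passed when mouse WA-833 was left out, and *Eif3h* also passed without mouse WC-820. The source of the low values of mouse WA-833 was not tested.

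Genes that act on these factors or beside them were read as lists. Of 16 genes of the mTORC1 pathway tested, 2 were higher, 0 were lower and the median difference was 0.09. *Sesn2*, which encodes a leucine sensor that restrains mTORC1, lay between 5.69 and 6.48 in alcohol fed mice and between 5.05 and 5.63 in control mice. Its difference was 0.81 ± 0.18 (SE; limma, adjusted p = 0.0166, and 0.0645 with no filter). *Castor1*, which encodes an arginine sensor that also restrains mTORC1, differed by 0.35 ± 0.08 (SE; limma, adjusted p = 0.0200, and 0.0709 with no filter). Both had control means below the limit for testing and entered through their alcohol values alone, and neither passed when every probe-set was tested, so both calls depend on the filter. *Rragd* and *Castor2*, of the same list, were too dim to be tested. When every probe-set was tested, *Rragd* passed with a difference of 0.86 (limma, adjusted p = 0.0402) and *Castor2* did not (0.336).

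Of 12 genes of eIF4E kinases and of partners of the cap and poly(A) complex, 1 was higher and 1 lower, with a median difference of 0.12. *Mknk1*, which encodes a kinase of eIF4E, rose by 0.31 (limma, adjusted p = 0.0436, and 0.126 with no filter), and *Pdcd4*, which encodes an inhibitor of eIF4A, fell by 0.37 (limma, adjusted p = 0.0347, and 0.108 with no filter). Of 8 genes of eIF2 regulators and of ribosome recycling and re-initiation, 1 was higher and 1 lower, with a median of 0.20. *Mcts1*, whose protein works with DENR in re-initiation, lay between 7.81 and 7.96 in alcohol fed mice and between 8.64 and 8.90 in control mice. It fell by 0.86 ± 0.08 (SE; limma, adjusted p = 5.19e-04), while *Abce1*, the ribosome recycling factor, rose by 0.26 (limma, adjusted p = 0.0385, and 0.112 with no filter).

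Of 5 genes of termination, ribosome rescue and the hypusine modification of eIF5A, 1 was higher, 0 were lower and the median difference was 0.18. *Etf1*, the release factor gene, rose by 0.35 (limma, adjusted p = 0.0126). Of 8 mitochondrial translation factors, 1 was lower, 0 were higher and the median difference was -0.07. *Mtif2*, a mitochondrial initiation factor gene, fell by 0.41 (limma, adjusted p = 0.0175, and 0.0650 with no filter). Of 13 cytosolic ribosomal protein genes tested, of 21 with a probe-set of their own, 4 were lower, 0 were higher and the median difference was -0.21. This list was taken by symbol, so it also held genes named as like a ribosomal protein. Those tested were *Rps27l*, *Rps4l* and *Rpl7l1*, with differences of -0.61, -0.56 and -0.27. All of them lay below the median of the list, and *Rps27l* and *Rps4l* were among the 4 called. The median therefore does not describe the ribosomal proteins proper. Ribosomal protein genes without a probe-set of their own were not read. *Rpl22* fell by 0.83, *Rpl23* by 0.74, *Rps27l* by 0.61 and *Rps4l* by 0.56 (limma, adjusted p = 0.0123, 0.00667, 0.00352 and 0.00906), and with no filter *Rpl22* did not pass (0.0512). These lists are short, and their counts are descriptions beside the 10.2% higher and 5.98% lower of all probe-sets.

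**Figure D4:**
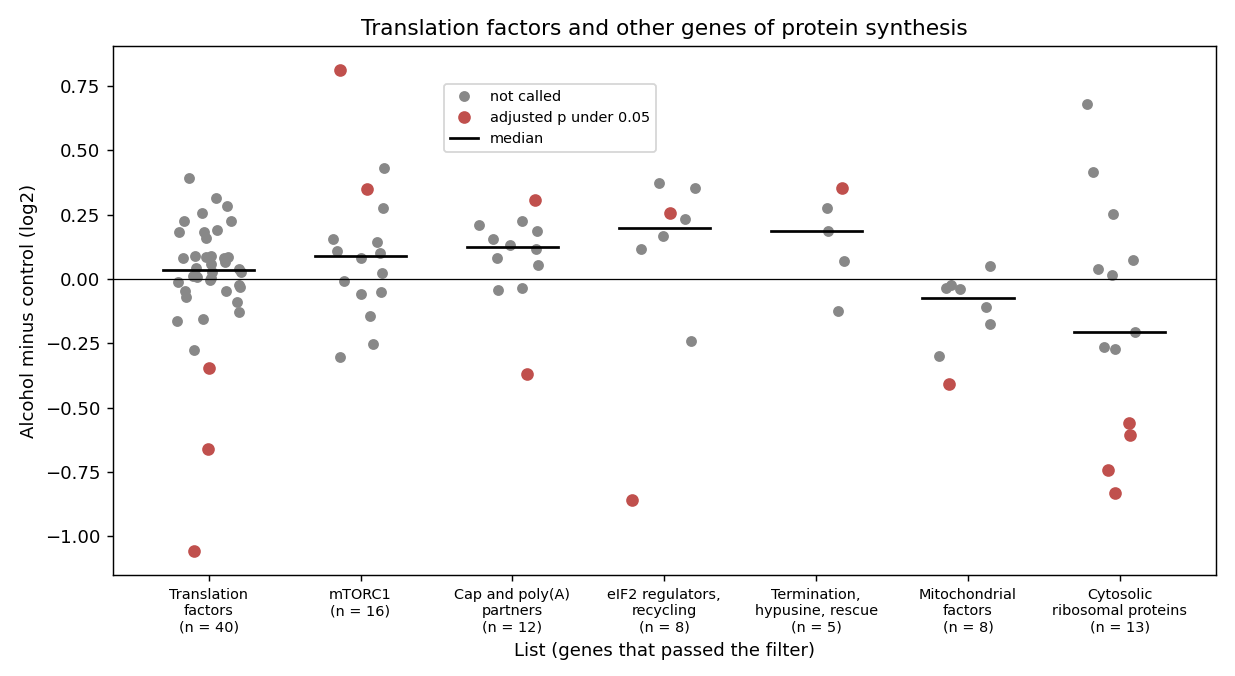
Difference of each gene tested (log2, alcohol minus control, vertical axis) in the 40 translation factors and the 6 lists of genes that act with them, with the median of each list marked. The median is 0.03 for the factors and -0.21 for the 13 ribosomal protein genes tested, the lowest of these lists. The ribosomal list was taken by symbol and includes *Rps27l*, *Rps4l* and *Rpl7l1*, genes like a ribosomal protein that lie below its median.

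Cell type markers were read beside these values. All 6 hepatocyte markers found were bright, 0 of them passed the test, and their summed level (log2) was 15.45 to 15.59 in alcohol fed mice and 15.46 to 15.55 in control mice. The 10 Kupffer cell markers also gave 0 calls, with summed levels of 11.45 to 12.06 in alcohol fed mice and 11.49 to 12.09 in control mice. Of 7 sinusoidal endothelial markers 2 were higher, *Lyve1* and *Clec4g*, with summed levels of 11.93 to 12.21 in alcohol fed mice and 11.62 to 11.76 in control mice. Of 7 stellate cell markers tested 1 was higher and 1 lower. Of 2 erythroid markers found, *Alas2*, the heme synthesis enzyme of red cell precursors, was tested and fell by 2.07, and the summed level was 7.11 to 8.42 in alcohol fed mice and 9.65 to 9.86 in control mice. Of 3 cholangiocyte markers found 1 was tested and did not pass. No monocyte, neutrophil or lymphocyte marker was bright enough to be tested. The part of the endothelial and erythroid differences in the values of *Eif4e*, *Eif4a3* and *Eif2b4* was not tested.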

How the data were processed

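Liver RNA of 8 mice, 4 on each diet, was read on 1 array each. The deposited log2 values were made by the authors with RMA in the Affymetrix Expression Console, whose version is not given in the sources used here. RMA normalizes arrays by quantiles and compresses differences of dim probe-sets. The table holds 23332 probe-sets, of which 14996 carry 1 symbol, 1019 several and 7317 none. No column was left out.

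Probe-sets were ranked by the fourth-highest of their 8 values and the top 10430 were tested, the number that the study kept after its own filter. A linear model of 2 groups was fitted to all of them in R 4.3.3 with limma 3.58.1 (lmFit, eBayes, 6 residual degrees of freedom), with Benjamini-Hochberg adjustment. The script was tested on simulated data. Each array is a separate animal, and the number of arrays limits the precision. Genes named with every value were those called, the cap-binding protein and its binders, the kinases, *Eef2*, and others chosen after their values were seen. Pathway lists gave counts and up to 4 called genes. The members and lists were chosen with earlier results of these data known. Promoter windows came from RefSeq tables (GRCm38.p6).

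The alternatives were testing every probe-set, ranking probe-sets by their mean, quantile normalization, median centring, a variance trend, robust variance, array weights, the study's thresholds, averaging a gene's probe-sets and omitting each mouse. The columns of the table hold no comparisons of the authors.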

Additional observations from a re-analysis of the deposited data

Results flagged for a closer look

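In 6 of 90 groups (45 factors on 2 diets) 1 mouse lay farther from the other 3 than the Dixon test allows, where chance gives about 1 in 20 groups. Among alcohol fed mice, *Eef1akmt1* was 6.99 in mouse WA-836 and 6.66 to 6.68 in the others, *Eef2kmt* was 7.25 in mouse WA-817 and 6.86 to 6.91 in the others, and *Eif4g3* was 7.53 in mouse WA-833 and 7.75 to 7.78 in the others. Among control mice, *Eif3h* was 10.51 in mouse WC-820 and 10.08 to 10.13 in the others. *Eif4e3* was 5.00 and *Eif5a2* 3.84 in control mouse WC-834, against 5.41 to 5.48 and 3.46 to 3.51 in the others. Both of these genes were too dim to be tested. The causes were not tested.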

How the results depend on the processing

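*Eif4e* was lower at an adjusted p under 0.05 in all 15 fits that tested it (adjusted p between 9.35e-05 and 0.00223), and *Eif4a3* in all 16 (0.0037 to 0.0259). *Eif2b4* was called in 11 of 16 (0.0122 to 0.0807). The count of factors that were higher was 0, but it was 1 with a variance trend and 2 with array weights. Leaving out 1 mouse gave 0 to 3 higher factors, with 3 without mouse WA-833 and 1 without mouse WC-820, and 2 to 3 lower ones. At the study's thresholds 1 factor was lower, *Eif4e*, which was bright enough for testing on the control diet only. Over all probe-sets, 1059 were higher and 624 lower, against 488 and 285 with no filter and 105 and 79 at the study's thresholds. The study, with its own filter and variance smoothing, reported slightly fewer higher and more lower genes at these thresholds. Leaving out 1 mouse gave 595 to 1086 higher and 362 to 557 lower probe-sets. The higher share of all calls was 62.9%, against 51.8% after quantile normalization and 45.1% after median centring (729 higher, 886 lower), which moved the median of all differences to 0.01 and -0.01. The median of the factors lay between 0.00 and 0.06 when 1 mouse was left out. Its sign turned after quantile normalization and median centring and without mouse WA-817. No called factor changed sign in these fits, while 15 factors that were not called did so in at least 1 of them, with differences of -0.10 to 0.05 there. No paired analysis was possible because the labels do not say which control mouse was pair-fed with which alcohol fed mouse. With 4 mice on each diet, the 95% intervals of the factors reached 0.14 to 0.38 to either side of the difference.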
